A study of Bos taurus with 15 samples.

Results

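Blastocysts were compared with oocytes of cattle (Bos taurus) on 6 of the 15 Affymetrix Bovine Genome arrays of the series. The 3 blastocyst arrays and the 3 oocyte arrays were taken by the stage named in each sample's title, and the titles call the replicates biological. Oocytes had been drawn from ovarian follicles within dense cumulus, the layer of somatic cells around the egg, then matured with LH and FSH, fertilized and grown in SOF medium with albumin, amino acids and pyruvate. The same protocol was given for all 6 arrays, and no genotype, breed or further treatment. Oocytes were sampled before fertilization and growth in SOF medium, so these steps go with the stage. The labels do not say whether the sampled oocytes were taken before or after maturation, how cumulus was taken off them, on which day blastocysts were collected, or how many oocytes or embryos went into 1 array. Whether replicates came from separate collections is not stated beyond the word biological, so the p-values below measure the spread between arrays of a stage. That spread was pooled over the whole series, so the morula and 1-cell arrays count in it as well.

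The oocyte grows with little transcription after it is full size and lives on transcripts and proteins that it stored, among them those of the egg coat and of meiotic arrest. After fertilization the stored transcripts are cleared and the embryo's own genome is switched on in cleavage. The blastocyst has an outer epithelium, the trophectoderm, which pumps ions and water to form a cavity, and an inner cell mass from which the epiblast and the hypoblast arise.

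For every probe set, the group of probes that reads 1 transcript, an array gave a signal (a linear intensity). Mean signal ran from 561 to 586 on the oocyte arrays and from 597 to 690 on the blastocyst arrays, and the median from 39.7 to 54.0 and from 49.4 to 61.7. Arrays 1 and 2 lay close to each other, with at least a 4-fold difference at 320 probe sets in oocytes and 352 in blastocysts, whereas array 3 differed that much from the others of its stage at 1979 to 3065. Spike-in transcripts, added to RNA as a labelling control, gave signal on oocyte arrays 2 and 3 and blastocyst array 3 and not on the other 3. The control ratio of middle to 3' signal, which falls when the copied RNA is short, was 0.0977, 0.237 and 0.0374 for GAPDH on the oocyte arrays and 0.544, 0.643 and 0.339 on the blastocyst arrays. For cyclophilin it was 0.0607, 0.102 and 0.0141 against 0.766, 0.499 and 0.525, so both ratios were lower on every oocyte array. The ratios of eIF-4E overlapped between the stages (0.0388, 0.0964 and 0.235 against 0.0490, 0.0547 and 0.163). Those of actin overlapped as well (0.0275, 0.0367 and 0.0440 against 0.0447, 0.0224 and 0.00635). The ratios of the elongation factor control ran the other way (0.215, 0.0921 and 0.118 against 0.00174, 0.00109 and 0.00239). These differences go with the stage, and their part in the results was not tested. The number of arrays limited the precision.

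Markers of each stage, chosen with earlier results of these data known, were set beside the labels and are no independent check of them. All 9 measured oocyte markers (ZP2, ZP3, ZP4, GDF9, BMP15, MOS, KPNA7, NLRP5 and OOEP) were higher in oocytes and passed the test. Of 8 measured blastocyst markers, KRT8, KRT18, CLDN4, CLDN6 and GATA6 were higher in blastocysts and passed, while CDH1, POU5F1 and SOX2 did not pass. CDX2, GATA2, GATA3, TFAP2C, NANOG, SOX17 and DSP were not analysed here.

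Between the oocyte and the blastocyst the transcript population changed broadly, and more genes rose than fell. Of 24016 probe sets, 2856 were higher in blastocysts (11.9%) and 1768 were lower (7.36%) at an adjusted p under 0.05. At 1 probe set per gene, 1634 of 9155 genes rose (17.8%) and 819 fell (8.95%). The median size of a called log2 change was 3.02 for rises and 2.66 for falls, where a log2 change of 2 is a 4-fold difference. Changes of at least 64-fold were found for 43 rising and 31 falling genes. The signals of the 3 arrays of each stage did not overlap at 3898 genes (42.6%), more than passed the test. Quantile normalization called 2467 higher and 2300 lower probe sets, so that 51.8% of calls were rises against 61.8%. Centring each array on its median moved the median change of all probe sets from 0.01 to -0.16 and gave 2527 and 2270. The excess of rises was thus smaller under these scalings. Signals on scaled arrays show a transcript's share of the amplified RNA, so fewer cells of a type and less RNA per cell cannot be told apart. Of 479 rising genes that had several probe sets, 93 had another called the same way and 10 another called the opposite way. For 294 falling genes these counts were 63 and 15.

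The largest falls were those of transcripts abundant in the egg. RGS16, a regulator that shortens G-protein signalling, had signals of 13443, 12539 and 11675 on the oocyte arrays and 40.4, 53.5 and 36.4 on the blastocyst arrays. Its log2 change was -7.73 (SE 0.30, adjusted p = 4.42e-06), a further probe set of the gene fell by 3.95, and another did not pass at -0.93. KPNA7, an importin alpha that carries proteins into the nucleus of the oocyte, went from 6329, 14177 and 7143 to 19.2, 29.3 and 26.0, a log2 change of -7.73 (SE 0.39, adjusted p = 9.62e-06). For both genes every oocyte array lay far above every blastocyst array. ZP2, a glycoprotein of the zona pellucida, read 11174, 12718 and 11905 in oocytes and 49.9, 68.3 and 19.9 in blastocysts, a log2 change of -7.67 (SE 0.49, adjusted p = 2.07e-05). Its 16-cell array still read 2836, and its morula arrays 99.7, 146 and 32.8.

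The other genes of the 15 largest falls spanned log2 changes from -6.44 to -7.65. All 15 were chosen among called probe sets whose arrays did not overlap between the stages. Several are known regulators. ID3, an inhibitor of basic helix-loop-helix factors, had signals of 11676, 11573 and 11292 against 154, 127 and 29.0. PRICKLE1, of planar cell polarity, had 13095, 11480.5 and 8832 against 219, 119 and 13.1, and 2 of its other probe sets fell as well. FYN, a Src-family kinase, had 2656, 5395 and 5013 against 77.7, 24.4 and 13.1. The oocyte arrays of ID3 stood within a narrow range, whereas the blastocyst arrays of PRICKLE1 and FYN were spread over a wider one, with array 3 lowest. CASP1, a caspase that activates interleukin-1, fell by 6.50 (SE 0.38), from 3433, 3409 and 6644 to 42.4, 26.1 and 26.8. ALG13, a subunit of the enzyme that adds the next sugar in N-glycan assembly, fell by 7.22 (SE 0.36), from 7993, 7656 and 6116 to 30.9, 34.0 and 32.9. TECTB, a relative of the zona pellucida proteins known from the tectorial membrane of the ear, fell by 7.28 (SE 0.38), from 3909, 5837 and 3618 to 11.8, 21.4 and 5.45. ARMC2, SRPX, PLEKHG1, TSPAN7, SYTL2 and ELAPOR2 made up the rest, at -7.65, -7.32, -7.02, -6.56, -6.46 and -6.45.

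**Figure D1:**
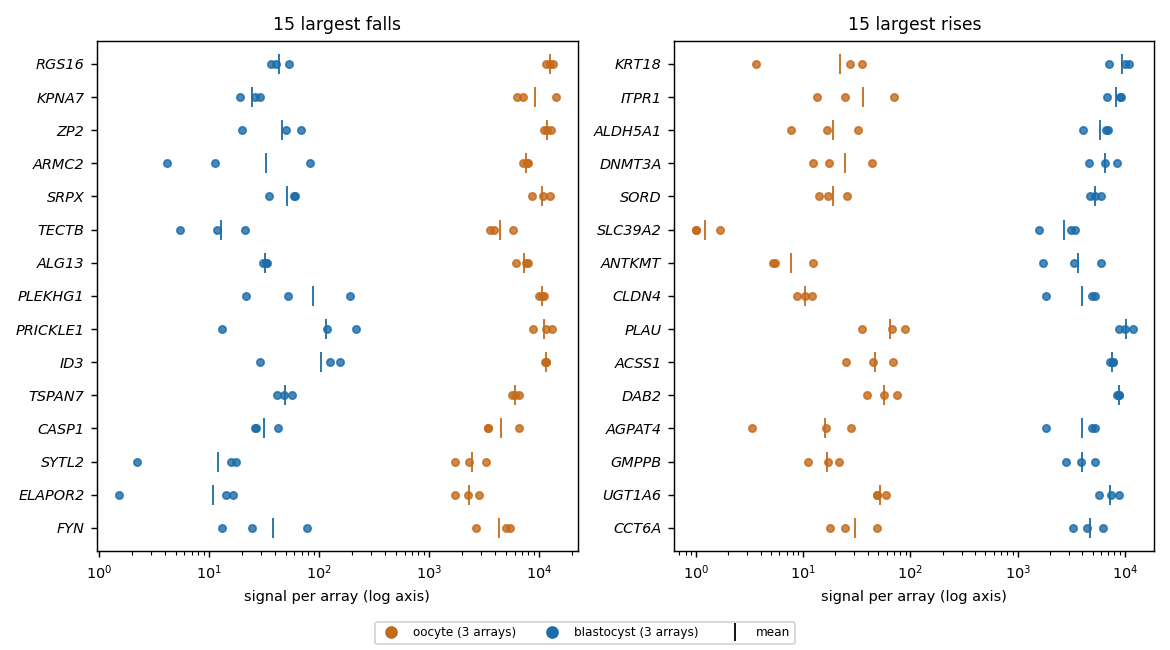
Signal of each oocyte array (orange) and blastocyst array (blue) for the probe sets of the 15 genes with the largest falls (left) and rises (right) on any probe set, on a log axis, with the stage mean as a vertical mark. The genes were chosen among called probe sets whose arrays did not overlap between the stages. Log2 changes run from -7.73 for RGS16 to 8.04 for KRT18.

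Stored maternal transcripts fell as a list. Among the 17 measured genes of the maternal list, falls were called for 13 and rises for none, with a median log2 change of -3.26 against 0.10 over all genes and 8.95% of all genes falling. ZP4, also of the egg coat, read 6197, 8069.6 and 8210.3 in oocytes and 85.3, 62.7 and 81.3 in blastocysts. MOS, the kinase that holds the mature egg in meiotic arrest, read 2825, 7851 and 7426 against 31.0, 109 and 35.7. Their log2 changes were -6.34 (SE 0.36, adjusted p = 1.46e-05) and -6.36 (SE 0.64, adjusted p = 1.61e-04), and no arrays overlapped. GDF9, a growth factor that the oocyte sends to its cumulus cells, had 928, 1331 and 885 against 37.4, 24.8 and 41.5 and a change of -4.39 (SE 0.44). NLRP5 and OOEP, parts of the subcortical maternal complex, changed by -3.26 and -3.61, and TEX14 and MAEL, of the germ cell bridge and of transposon control, by -4.08 and -2.77. SYCP3, of the synaptonemal complex, had the smallest called fall, 1.46. Its adjusted p was 0.059 with the replicate number as a block, which left 12 falling genes, and between 0.0722 and 0.154 without blastocyst 1 or 2 or oocyte 2 or 3. That of OOEP was 0.0519, 0.0614 and 0.0575 without blastocyst 1, blastocyst 2 and oocyte 2, and that of MAEL 0.055 without blastocyst 1.

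BMP15, the partner of GDF9, and ZP3, the sperm-binding zona protein, were less even. BMP15 had 423, 708 and 4779 in oocytes and 124, 198 and 176 in blastocysts, and ZP3 had 587, 1713 and 6332 and 339, 201 and 298. Oocyte array 3 stood highest for both genes, and array 1 lay closest to the blastocysts. Their changes were -2.68 (SE 0.75, adjusted p = 0.0310) and -2.70 (SE 0.70, adjusted p = 0.0234). Without blastocyst 1, 2 or 3 the adjusted p of BMP15 was 0.0965, 0.0658 and 0.0617. For ZP3 it was 0.0519 without blastocyst 1, 0.0779 without blastocyst 2 and 0.0598 without oocyte 2. The count of falling maternal genes was 8 without blastocyst 1 and 9 without blastocyst 2. KIT, the receptor for the KIT ligand of follicle cells, read 6087 on average in oocytes and 6073 in blastocysts, and BUB1B, a spindle checkpoint kinase, 6976 and 3309, without passing the test.

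In 7 families a form known from the egg or from certain tissues was set beside a more general relative. KPNA7 fell as above, while its relatives KPNA1, KPNA2, KPNA3 and KPNA4 had changes of 1.29, 0.47, 1.37 and 2.02 and did not pass. KPNA3 passed with the replicate number as a block (adjusted p = 0.0469), and a further KPNA4 probe set passed at 1.39. UCHL1, a deubiquitinating enzyme abundant in eggs, read 8082, 8620.0 and 8678 in oocytes and 643, 213 and 17.1 in blastocysts, a log2 change of -5.63 (SE 1.15, adjusted p = 0.00700), and UCHL3 did not pass at -0.18 (SE 0.51). HSPA8, the constitutive heat shock cognate protein, rose by 2.49 (SE 0.29), and HSPA2, the form of germ cells, did not pass at 1.29 (SE 0.64). GPX4, which reduces lipid peroxides, rose by 2.91, and GPX3, its secreted relative, was low on all arrays, at 13.7, 17.0 and 6.26 against 6.10, 8.42 and 8.41. LDHB rose by 4.91 and SLC2A1 by 3.00, whereas LDHA and SLC2A3 did not pass at 0.91 and -0.23. LDHA had a further probe set that rose by 3.46. CNOT6L and CNOT6, catalytic subunits that shorten poly(A) tails, had -1.87 (adjusted p = 0.109) and -1.14 (adjusted p = 0.226). The CNOT6L probe set passed with quantile normalization (adjusted p = 0.0485), and a further one fell by 5.60 and passed. The difference within a pair was not tested.

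The largest rises included genes of the epithelium, of metabolism and of DNA methylation. KRT18, a keratin of simple epithelia, had signals of 3.62, 27.4 and 35.5 in oocytes and 7119.7, 10988 and 10132 in blastocysts, the largest log2 change of all named probe sets at 8.04 (SE 0.53, adjusted p = 2.23e-05). ITPR1, the calcium channel of the endoplasmic reticulum, read 13.4, 24.6 and 69.8 against 9027, 6884 and 9135, a change of 7.47 (SE 0.44). Of 4 other ITPR1 probe sets, 2 rose, by 3.71 and 1.93 (the last that of highest mean), and 2 did not pass. DNMT3A, which sets new DNA methylation, read 12.3, 44.1 and 17.4 against 6529.5, 4671 and 8510.0, a change of 7.38 (SE 0.58, adjusted p = 4.25e-05). A further DNMT3A probe set rose by 2.78 and another did not pass at -0.34. Like the largest falls, these 3 probe sets were chosen among those whose arrays did not overlap between the stages.

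The other large rises included genes of several enzymes. ALDH5A1, which oxidizes succinate semialdehyde, rose by 7.42, SORD, which makes fructose from sorbitol, by 7.26, and ACSS1, a mitochondrial acetyl-CoA synthetase, by 7.00. ACSS1 had signals of 69.5, 24.9 and 45.0 against 7831, 7344 and 7714, with the blastocyst arrays within a narrow range. AGPAT4, of phosphatidic acid synthesis, rose by 6.91, UGT1A6, a glucuronosyltransferase, by 6.73 and GMPPB, which makes GDP-mannose, by 6.91. UGT1A6 read 49.0, 48.9 and 58.7 against 7351, 8846 and 5793, and since UGT1A genes share their last exons, which member the probe set reads is uncertain. SLC39A2, a zinc importer, read 1.66, 1.00 and 1.00 in oocytes, at or near the value of 1.00 that recurs in the table, and 3126, 3417 and 1576 in blastocysts. Its morula arrays read 2139.5, 3065 and 1.00, so 1 morula array lacked the signal. ANTKMT, a methyltransferase of the mitochondrial nucleotide carrier, rose by 7.12 on 1 probe set, while the probe set of higher mean that stands for the gene elsewhere did not pass at 1.42 (adjusted p = 0.0766). CCT6A, a subunit of the TRiC chaperonin, rose by 6.68. PLAU, DAB2 and CLDN4, also among the 15, belong to the lists described next.

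Trophectoderm genes were mostly higher. Of 26 measured, 15 rose, 1 fell and 10 did not pass, with a median log2 change of 2.48; 17.8% of all genes rose. PLAU, the urokinase plasminogen activator of invasive trophoblast, had 89.8, 67.6 and 35.4 in oocytes and 10106, 11808 and 8888 in blastocysts, and DAB2, an endocytic adaptor, had 56.5, 75.1 and 39.1 and 8879.9, 8513 and 8868. They changed by 7.05 (SE 0.67) and 6.94 (SE 0.45), and a further DAB2 probe set did not pass at 1.07. TEAD4, the Hippo pathway factor at the head of trophectoderm fate, rose by 3.79 (SE 0.57, adjusted p = 0.00134), from 20.8, 44.3 and 37.2 to 571, 334 and 1506. TFAP2A, KLF5 and LGALS3 rose by 4.07, 2.49 and 2.46, and the adjusted p of KLF5 lay between 0.0587 and 0.0817 without any 1 array other than oocyte 3. KRT8, the partner of KRT18, read 38.1, 36.7 and 24.2 against 621, 648 and 354, a rise of 3.47 (SE 0.49).

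KRT19 rested on the oocyte arrays in different ways. It read 5.31, 26.3 and 1186 in oocytes and 3407, 5332 and 4120.2 in blastocysts, so oocyte 3 stood far above the other oocyte arrays but below every blastocyst array. Its change of 5.36 had an SE of 1.46 (adjusted p = 0.0282), and the adjusted p was 0.0712 with the replicate block. Without any 1 of the arrays other than oocyte 3 it lay between 0.062 and 0.101. ELF5, a trophoblast factor and the list's only fall, was low on every array, at 24.4, 21.4 and 17.5 in oocytes and 14.3, 5.95 and 3.15 in blastocysts (change -0.66, adjusted p = 0.0487, and 0.0528 with the block). Leaving out blastocyst 2 or 3 or any 1 oocyte array raised it to between 0.0551 and 0.143. HAND1, CRIPTO, ID2 and ELF3 had changes of 0.84, 2.06, 1.24 and 0.58 and did not pass, though CRIPTO did without blastocyst 3 (adjusted p = 0.0271).

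**Figure D2:**
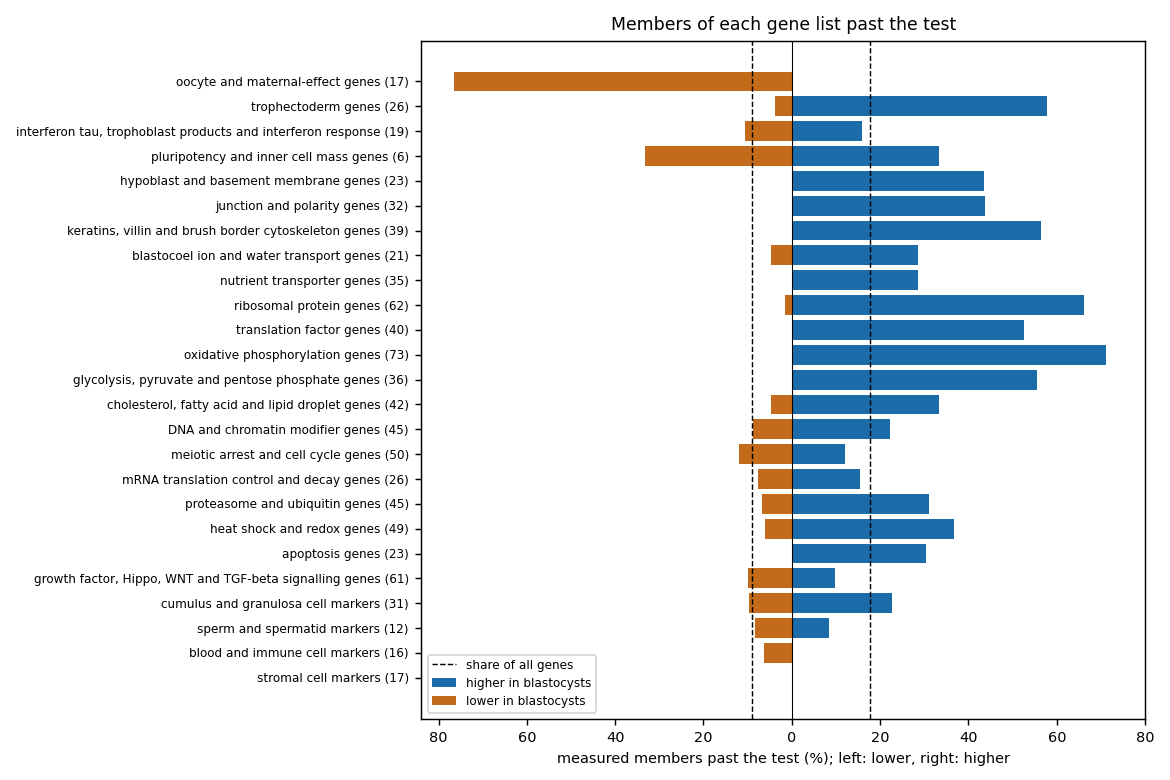
Share of the measured members of each gene list that passed the test, in percent, higher in blastocysts to the right and lower to the left, with the number measured in brackets. Dashed lines mark the share of all 9155 genes, 17.8% higher and 8.95% lower; the oxidative phosphorylation list reached 71.2% higher and the maternal list 76.5% lower.

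Genes of cell junctions and polarity rose in 14 of 32 cases (43.8%) and fell in none, with a median change of 1.29. Over all genes 17.8% rose and the median was 0.10. CLDN4 and CLDN6 are claudins, the strands of tight junctions. CLDN4 had 8.67, 12.1 and 10.5 in oocytes and 5294, 1855 and 4906 in blastocysts, and CLDN6 had 105, 112 and 113 and 12427, 12345 and 9948. They rose by 7.11 (SE 0.48, adjusted p = 2.41e-05) and 6.52 (SE 0.50, adjusted p = 3.74e-05), and a further CLDN6 probe set did not pass at 0.62. CLDN7 and CLDN3 rose by 3.48 and 2.72, and F11R, a junctional adhesion molecule, by 3.07. For CLDN7 the adjusted p was 0.0531 with the replicate block and 0.0626, 0.0627 and 0.0562 without blastocyst 3, oocyte 1 and oocyte 3. PRKCZ, an atypical protein kinase C of apical polarity, read 38.1, 37.5 and 39.0 against 2163, 2588 and 2142, a rise of 5.41 (SE 0.56) with little spread among the oocyte arrays. Of 5 measured desmosomal genes of the list, DSC2 rose by 5.50, PKP2 by 4.25 and JUP by 3.66, and DSC3 and PKP3 did not pass at -0.33 and 0.60. GJB5, a connexin of gap junctions, rose by 5.00, while GJA1 did not pass at -1.68 and did without oocyte 3 (adjusted p = 0.0416).

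Other junction genes gave no call. CDH1, E-cadherin, read 958, 1427 and 117 in oocytes and 4128, 7023 and 1319 in blastocysts, with array 3 lowest in both stages and blastocyst 3 below oocyte 2. Its change of 2.57 (SE 1.06, adjusted p = 0.126) passed with the replicate number as a block (adjusted p = 0.0121) and without the arrays numbered 3 (adjusted p = 0.0216). TJP1, the scaffold ZO-1, read 77.0, 52.4 and 147 against 36.1, 35.0 and 123, overlapping at a change of -0.50 (SE 0.53). CTNNB1, beta-catenin, had 0.06 and CTNNA1 0.77.

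Among keratins, annexins and actin-binding genes of the brush border list, 22 of 39 rose (56.4%, against 17.8% of all genes) and none fell. The median was 1.87. S100A10 and ANXA2 form a complex under the plasma membrane. S100A10 had 88.2, 104 and 17.6 against 5714, 6331 and 5874 and rose by 6.32 (SE 0.49), with a further probe set at 5.75, and ANXA2 rose by 3.93. ANXA1, ANXA3, ANXA4 and ANXA5 rose by 6.12, 5.24, 3.06 and 4.13. Tropomyosins TPM4 and TPM1 rose by 4.38 and 4.36 and Arp2/3 subunits ARPC5, ARPC1B and ARPC2 by 3.89, 2.25 and 1.87, whereas TPM3, CFL1 and PFN1 did not pass at 0.53, -0.07 and 0.16. For ANXA4 the adjusted p lay between 0.0505 and 0.0859 without any 1 array other than oocyte 1. That of ARPC1B was 0.0515 with the replicate block and 0.0619 to 0.0767 without blastocyst 1 or 2 or oocyte 2, and that of ARPC2 0.0619 without blastocyst 2. ACTB, beta-actin, read 6573, 9005 and 3673 against 11767, 12934 and 8748, with oocyte 2 above blastocyst 3. Its change of 0.87 had an adjusted p of 0.108, and 0.0357 with the replicate block. VIL1, villin, and VIM, a filament of mesenchymal cells, stayed low at mean signals of 40.1 and 22.6 in blastocysts.

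Genes of the hypoblast and of the basement membrane rose in 10 of 23 cases (43.5%, against 17.8% of all genes) and fell in none. Their median was 1.16. GATA6, the hypoblast factor, read 202, 116 and 705 in oocytes and 10137, 13054 and 7408 in blastocysts, a rise of 5.18 (SE 0.58, adjusted p = 2.62e-04). FN1, fibronectin, read 555, 108 and 286 against 9525, 10429 and 8366, a rise of 5.09 (SE 0.52), and a further probe set did not pass at 0.13. For both genes the groups were far apart, and oocyte 3 was the highest oocyte array for GATA6. PDGFRA, a receptor of hypoblast cells, read 149, 32.6 and 43.3 against 4481, 3315 and 512, with blastocyst 3 lowest, and rose by 4.68 (SE 0.78). Its 2 other probe sets did not pass, at 0.93 and -0.24. CTSL, a lysosomal protease of yolk sac cells, read 1.21, 5.59 and 6.60 against 2749, 4309 and 609, a rise of 6.59 (SE 0.71). APOA1, SPARC, LAMB1 and NID1 rose by 4.59, 4.08, 2.89 and 2.83, while GATA4, HNF4A, LAMC1 and COL4A1 had -0.43, 0.00, -1.50 and 1.18 without passing. For LAMB1 the adjusted p was 0.0529 with the replicate block and 0.0578 to 0.0637 without blastocyst 2 or 3 or oocyte 1 or 3. COL4A1 passed as a rise with the block (adjusted p = 0.042), and LAMC1 as a fall with quantile normalization (0.0202), with median centring (0.0348) and without blastocyst 2 (0.0347).

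Only 6 genes of the pluripotency list were measured, 2 higher, 2 lower and 2 without a call, where 17.8% of all genes rose and 8.95% fell. POU5F1, encoding OCT4, was already abundant in oocytes, with 2542, 3207 and 5446 against 7099, 6322 and 8148. All 3 blastocyst arrays lay above the oocyte arrays, yet the change of 1.01 (SE 0.33) had an adjusted p of 0.0585, of 0.0472 with the replicate block and of 0.0131 without oocyte 3. SOX2 read 17.3, 392 and 164 against 64.8, 79.2 and 91.7, with the blastocyst values inside the range of the oocytes (change -0.52, SE 0.80, adjusted p = 0.721). KLF4 rose by 2.55 (SE 0.45), from 1733, 1185 and 1142 to 9060.2, 10625 and 5040.4, and the histone variant gene H2AZ1 by 5.16. STAT3, the factor that answers LIF, read 2398, 9130.3 and 2364 against 339.8, 154 and 1825, and FBXO15, of a ubiquitin ligase, 5938, 5805 and 6770.4 against 1717, 1246 and 334. FBXO15 fell by 2.75 (SE 0.55). STAT3 fell by 2.96 (SE 0.83, adjusted p = 0.0321), but its adjusted p was 0.0596 with the block and 0.1, 0.107, 0.0511 and 0.115 without blastocyst 1, blastocyst 2, oocyte 1 and oocyte 2. A further STAT3 probe set fell by 4.35 and passed.

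Genes that move ions and water into the cavity were mixed. Of 21 measured, 6 rose (28.6%), 1 fell (4.76%) and 14 did not pass, with a median of 0.78. Over all genes the shares were 17.8% and 8.95%. AQP3, a channel for water and glycerol, read 1380.5, 279 and 503 in oocytes and 10275, 7999 and 7271 in blastocysts, a rise of 3.82 (SE 0.67, adjusted p = 0.00329). The sodium pump's beta subunits went opposite ways. ATP1B3 read 633, 189.8 and 391 against 10496, 14100.3 and 10733 and rose by 4.95 (SE 0.51), with a further probe set at 0.95 that did not pass, whereas ATP1B1 read 9493, 6754 and 4181 against 2179.7, 1477 and 2253 and fell by 1.73 (SE 0.41, adjusted p = 0.0156). No arrays overlapped for either probe set. The adjusted p of ATP1B1 was 0.057 without blastocyst 2 and 0.0601 without oocyte 1. ATP6V1E1 and ATP6V1A, of the proton pump, rose by 5.26 and 2.18, and CLIC1, a chloride channel, by 3.13. The adjusted p of ATP6V1A lay between 0.0838 and 0.114 without blastocyst 1 or 2 or oocyte 2 or 3. CFTR, another chloride channel, rose by 2.23, but a further probe set fell by 3.35 and passed, so the gene's direction is uncertain.

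Nutrient transporters rose in 10 of 35 cases (28.6%, against 17.8% of all genes) and fell in none, with a median of 0.41. SLC2A1, the glucose transporter GLUT1, read 100.5, 102 and 256 in oocytes and 986, 1741 and 1071 in blastocysts, and SLC2A8, another glucose transporter of the blastocyst, 252, 97.7 and 47.4 against 3112, 1449.6 and 3925. They rose by 3.00 (SE 0.49) and 4.40 (SE 0.60) without overlap. SLC2A5, the fructose transporter, rose by 3.89, with 2 further probe sets that did not pass. Amino acid carriers SLC7A5, SLC38A2 and SLC1A3 rose by 4.43, 4.44 and 3.52, and the lactate and pyruvate carrier SLC16A1 by 2.42. SLC38A2 read 434, 71.4 and 1358 against 9516, 7802 and 7442, uneven among oocytes and even among blastocysts. SLC1A5, a glutamine carrier, was at a mean of 8441 in oocytes and 3675 in blastocysts and did not pass, but did without blastocyst 3 (adjusted p = 0.0413). Of the list, 8 rose and 1 fell with the replicate block, and 10 rose and 3 fell without the arrays numbered 3.

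Protein synthesis genes rose together. Of 62 measured ribosomal protein genes, 41 rose (66.1%, against 17.8% of all genes), 1 fell and 20 did not pass. Their median was 2.08. RPS6, a protein of the small subunit, read 1604, 1079 and 1808 in oocytes and 17878, 20788 and 17448 in blastocysts, a rise of 3.66 (SE 0.28, adjusted p = 3.60e-05). RPL7 read 489, 517 and 953 against 10707, 13753 and 12368, a rise of 4.26 (SE 0.31), with a further probe set at 2.39 that did not pass. In both genes the oocyte arrays already had a clear signal, and the blastocyst arrays lay above all of them. RPL3, with 153, 436 and 40.1 against 6797, 11206 and 4991, had the largest rise of the list at 5.48 (SE 0.74), but a further probe set did not pass at 0.18. The called rises reached down to 0.81 for RPL11 and 0.91 for RPL35A. These 2 calls were lost with quantile normalization (adjusted p = 0.0888 and 0.0794) and without any 1 array other than oocyte 3 (0.0704 to 0.112 and 0.0515 to 0.106). RPL21 was the only fall at -4.66 (SE 1.06), from 9277, 6543 and 5508 to 786, 577 and 27.8, and its other probe set rose by 1.90 and passed, so its direction is uncertain. Ribosomal protein genes have many near-identical pseudogenes, and which copies the probes read was not tested.

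Translation factors rose in 21 of 40 cases (52.5%, against 17.8% of all genes) and fell in none, with a median of 1.79. Subunits of the initiation factor eIF3 had the largest rises. EIF3A read 47.7, 35.6 and 39.8 against 3360.1, 5342 and 3115, a rise of 6.08 (SE 0.59), though a further probe set did not pass at -0.01. EIF3G and EIF3D rose by 5.39 and 5.19, the elongation factor EEF2 by 3.57 and the release factor ETF1 by 3.60. Of the cap-binding complex, EIF4E, EIF4A1 and EIF4A2 had changes of -0.09, 0.17 and -0.13 at mean oocyte signals of 5153, 5761 and 5537 and did not pass, and EIF4G1 rose by 1.95, a call lost without blastocyst 1 or 3 or oocyte 1 or 2 (adjusted p = 0.071 to 0.0864). Whether eIF3 and the cap-binding complex differ was not tested.

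Oxidative phosphorylation had the largest share of rises of the 25 lists. Of 73 measured genes, 52 rose (71.2%, against 17.8% of all genes) and none fell, with a median of 2.35. NDUFB10, a subunit of respiratory complex I, read 68.4, 55.8 and 12.8 in oocytes and 2578, 3072 and 7367 in blastocysts, a rise of 6.12 (SE 0.54, adjusted p = 7.81e-05). SDHB, the iron-sulfur subunit of complex II, read 34.5, 75.6 and 206 against 3636, 6515 and 2707, and COX5A, of complex IV, 58.7, 136 and 296 against 3021, 4845 and 3913. They rose by 5.32 (SE 0.86) and 4.67 (SE 0.62), and for both the oocyte arrays differed widely among themselves, with array 3 highest. Complex III genes CYC1, UQCRC1 and UQCRFS1 rose by 4.25, 4.06 and 3.90, and the ATP synthase genes ATP5F1B, ATP5PD and ATP5F1A by 3.75, 4.17 and 2.35. The call of ATP5F1A was lost without any 1 array (adjusted p = 0.05 to 0.125). Among the 21 without a call, NDUFA6, ATP5PF and NDUFA1 had mean oocyte signals of 5516, 6688 and 5399 and changes of -0.20, -0.05 and 0.62.

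Glycolysis, pyruvate and pentose phosphate genes rose in 20 of 36 cases (55.6%, against 17.8% of all genes) and fell in none. Their median was 2.29. GAPDH read 44.0, 298 and 177 in oocytes and 5314, 7442 and 3572 in blastocysts, a rise of 5.09 (SE 0.92, adjusted p = 0.00365). The array's control probe set at the GAPDH 3' end read 522, 1297 and 4690 against 9999, 11805 and 10861, a smaller difference. Control probe sets were not tested, so the size of the gene's rise is uncertain. ENO1, enolase, read 164, 182 and 159 against 4629, 7184 and 6257, a rise of 5.01 (SE 0.46), and LDHB, a lactate dehydrogenase subunit, 319, 249 and 229 against 8287, 10617 and 6669. The oocyte arrays of ENO1 and LDHB agreed closely, whereas those of GAPDH spanned a wide range. PDHA1, of the pyruvate dehydrogenase complex, rose by 5.51 (SE 0.40), but its 3 other probe sets, at -0.89, -0.64 and -0.16, did not pass. HK1, PGK1, ALDOA and MDH2 rose by 4.25, 3.60, 3.59 and 4.10, and the adjusted p of HK1 was 0.0599 and 0.0561 without blastocyst 1 and 2. TKT, transketolase, read 43.5, 11.9 and 3382 against 6299.9, 5792 and 7054, with oocyte 3 far above the other oocyte arrays. Its rise of 5.16 (SE 1.41, adjusted p = 0.0288) was lost without any 1 array other than oocyte 3, at adjusted p of 0.0672 to 0.102. CS, citrate synthase, IDH1 and PGD had changes of -0.21, 0.53 and -0.48 from mean oocyte signals of 10225, 6629 and 5001 and did not pass.

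Lipid genes rose in 14 of 42 cases (33.3%, against 17.8% of all genes) and fell in 2, with a median of 0.84. FASN, fatty acid synthase, read 1100.3, 249.7 and 17.1 in oocytes and 10560.1, 11199 and 10926 in blastocysts, a rise of 5.67 (SE 1.02, adjusted p = 0.00362). ELOVL6, which lengthens the fatty acids that FASN makes, read 31.3, 10.0 and 24.4 against 2256, 3618 and 2597 and rose by 6.24 (SE 0.41). The 3 oocyte arrays of FASN ranged widely and its blastocyst arrays were even. SCD and FADS2, desaturases, rose by 4.32 and 4.05, and DHCR7 and SQLE, of cholesterol synthesis, by 5.37 and 4.79. HMGCS1 and INSIG1, of the same pathway, did not pass at -0.40 and -3.04, and INSIG1 passed with median centring (adjusted p = 0.0444). LIPE, hormone-sensitive lipase, fell by 4.18 (SE 0.48), with 3 further probe sets that did not pass, and PPARD, a fatty acid receptor, fell by 2.36 (SE 0.54), with 2 further probe sets that did not pass.

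**Figure D3:**
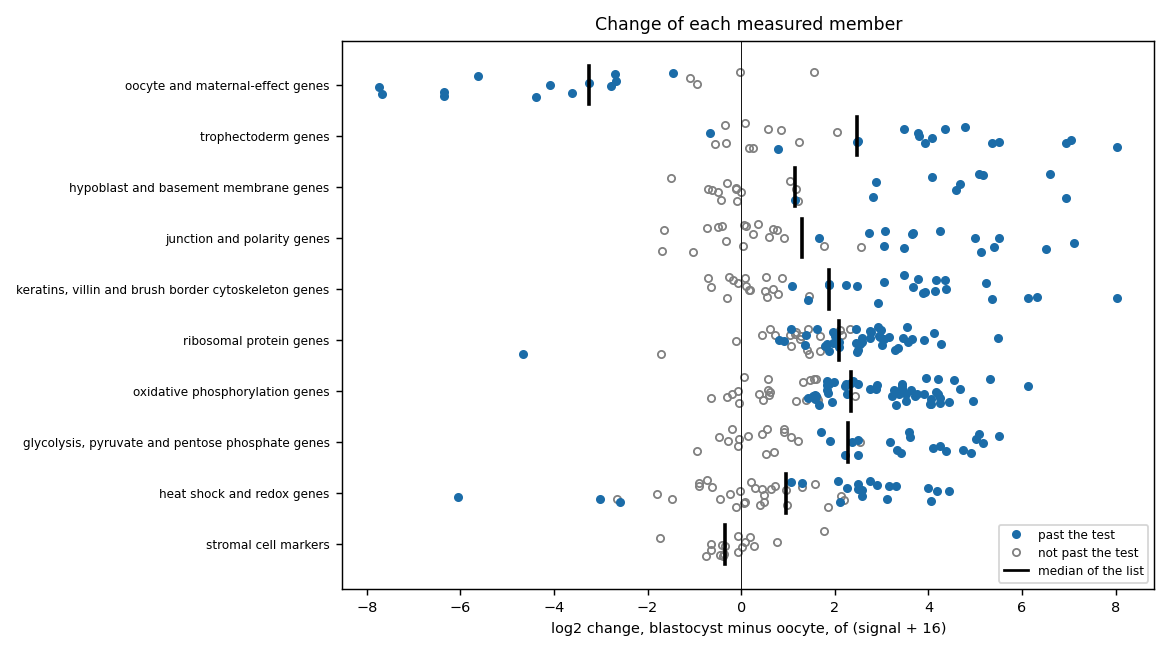
Log2 change from oocyte to blastocyst of each measured member of 10 gene lists, filled where the member passed the test and open where it did not, with the median of each list as a black bar. The maternal list has its median at -3.26 and the oxidative phosphorylation list at 2.35; the stromal cell markers hold no called member.

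Among DNA and chromatin modifiers, 10 of 45 rose (22.2%), 4 fell (8.89%) and 31 did not pass, near the shares of all genes, with a median of 0.06. The genes that maintain DNA methylation moved opposite to DNMT3A. DNMT1, which copies methylation to the new strand, read 328, 1017 and 505 in oocytes and 48.9, 49.4 and 44.8 in blastocysts, and UHRF1, which guides DNMT1 to the replication fork, 10453, 11636 and 8449 against 488, 163 and 2025. They fell by 3.16 (SE 0.49, adjusted p = 0.00161) and 4.15 (SE 0.76, adjusted p = 0.00407), without overlap, and a further UHRF1 probe set fell by 5.07. DNMT3B read 88.8, 73.3 and 1124 against 64.1, 86.2 and 40.8 and did not pass at -1.51, its oocyte array 3 standing apart. HDAC6 and HDAC5, histone deacetylases, rose by 4.67 and 3.45, and KDM6A, which removes a repressive mark from histone H3, by 3.25, with 2 further KDM6A probe sets that did not pass. EHMT1, a histone methyltransferase, fell by 1.50, with 3 further probe sets that did not pass, and HMGN2 by 1.46 (adjusted p = 0.0293). The adjusted p of HMGN2 lay between 0.0504 and 0.0873 without blastocyst 1, blastocyst 3 or any 1 oocyte array. EZH2, EED, CHD4 and SMARCA4 had changes of -0.51, -0.64, -0.45 and 0.06 and did not pass.

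Cell cycle genes split evenly, with 6 of 50 higher and 6 lower (12.0% each) and a median of -0.03. Of all genes, 17.8% were higher and 8.95% lower. CCND2, cyclin D2 of the G1 phase, read 57.1, 44.6 and 20.8 in oocytes and 3008, 2803 and 5483 in blastocysts and rose by 6.04 (SE 0.88). Its partner CDK4 and the cyclin gene CCNE2 rose by 3.28 and 3.75. RB1, the retinoblastoma protein that those kinases switch off, read 1592, 1551 and 2925 against 78.7, 35.5 and 138 and fell by 4.42 (SE 0.57, adjusted p = 5.54e-04). ESPL1, separase, AURKA, a spindle kinase, and CCNB1, cyclin B1, fell by 2.71, 1.80 and 1.43. CDK1 passed as a rise at 2.01 (SE 0.48, adjusted p = 0.0152) and E2F4 as a fall at -2.04 (SE 0.52, adjusted p = 0.0203). For CCNB1 the adjusted p lay between 0.0542 and 0.134 without blastocyst 1 or 3 or oocyte 2 or 3. A further AURKA probe set fell by 6.22. PCNA, MCM4 and BUB3 had mean oocyte signals of 6522, 6453 and 8429, with log2 differences of -0.17, -0.03 and 0.09 that did not pass.

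Genes that control stored mRNA rose in 4 of 26 cases (15.4%) and fell in 2 (7.69%), near the 17.8% and 8.95% of all genes. With quantile normalization 6 fell. PABPC1, which coats poly(A) tails, read 1486, 6722 and 3418 in oocytes and 14379, 17517 and 12216 in blastocysts and rose by 2.16 (SE 0.47), but a further probe set fell by 1.98 and passed. CNOT1, the scaffold of the deadenylase complex, read 869.6, 694 and 857 against 7244, 8329 and 5878 and rose by 3.12 (SE 0.28). ZFP36L2, which marks AU-rich mRNA for decay, rose by 3.43. The mRNA-binding proteins IGF2BP1 and IGF2BP3 moved in opposite directions. IGF2BP1 read 107, 61.7 and 39.9 against 1603, 2788 and 3250.4, a rise of 4.92 (SE 0.42). IGF2BP3 read 5337, 9461 and 6702 against 792, 1263 and 1853, a fall of 2.49 (SE 0.35), and a further probe set fell by 1.89. TENT4A, a poly(A) polymerase, fell by 3.50 (SE 0.49), with a further probe set that fell by 4.26.

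Proteasome and ubiquitin genes rose in 14 of 45 cases (31.1%, against 17.8% of all genes) and fell in 3, with a median of 0.57. PSMA1, of the 20S core, read 21.3, 17.1 and 10.3 in oocytes and 2514, 4602 and 899.9 in blastocysts and rose by 6.11 (SE 0.73), and PSME1, of the activator PA28, rose by 5.19. PSMA5, another core subunit, read 5682, 9643 and 7529.9 against 2839, 3979 and 2671 and fell by 1.25 (SE 0.28, adjusted p = 0.0110). UCHL1 was the largest fall, and USP2, a deubiquitinating enzyme of low signal, fell by 2.25 (adjusted p = 0.0453). The adjusted p of USP2 lay between 0.1 and 0.135 without blastocyst 1, 2 or 3 or oocyte 2 or 3. When only the oocyte and blastocyst arrays were fitted, 9 genes of the list rose.

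Heat shock and redox genes rose in 18 of 49 cases (36.7%, against 17.8% of all genes) and fell in 3. Their median was 0.95. HSPA8 read 1948, 1706 and 3268 in oocytes and 11821, 15234 and 10978 in blastocysts (SE 0.29 of the change of 2.49), and the mitochondrial chaperone HSPD1 rose by 3.15, with an adjusted p of 0.0729, 0.0809 and 0.0581 without blastocyst 1, 2 and 3. With the replicate block 5 genes of the list fell. GPX1 and TXN, of peroxide reduction, rose by 4.43 and 3.31, and NFE2L2, the factor NRF2 that drives many redox genes, by 3.98 (SE 0.64). Single probe sets of GPX1 and NFE2L2 besides these did not pass. NQO1, a known target of NRF2, read 1240.4, 1614 and 1007 against 144, 202 and 96.5 and fell by 3.02 (SE 0.40, adjusted p = 6.68e-04). GSTM3, a glutathione transferase, read 879.5, 4479 and 3205 against 24.4, 16.2 and 17.5 and fell by 6.06 (SE 0.59, adjusted p = 1.34e-04). PRDX6 fell by 2.59, but another of its probe sets rose by 4.56 and passed, so its direction is uncertain.

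Apoptosis genes rose in 7 of 23 cases (30.4%, against 17.8% of all genes) and fell in none. With the replicate block 6 rose and 2 fell, as without the arrays numbered 3. BAK1, which opens the mitochondrial outer membrane, read 4.21, 4.42 and 4.74 in oocytes and 642, 213 and 1287 in blastocysts and rose by 4.83 (SE 0.77). DIABLO, which blocks inhibitors of apoptosis, read 38.1, 20.3 and 6.52 against 887, 826 and 892, a rise of 4.64 (SE 0.48). The oocyte signals of both were low on all arrays. BAD and FADD rose by 2.75 and 2.53, with 2 further FADD probe sets that did not pass. The survival genes BCL2 and MCL1 had mean oocyte signals of 7638 and 4159 and did not pass, at -0.47 and 0.66, nor did BAX at -1.19.

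Growth factor, Hippo, WNT and TGF-beta genes rose in 6 of 61 cases and fell in 6 (9.84% each), with a median of -0.17, a smaller share of rises than over all genes. With quantile normalization 4 rose and 9 fell, and without the arrays numbered 3 these counts were 6 and 10. LEF1, the factor through which beta-catenin acts, read 4933, 5295 and 3403 in oocytes and 45.6, 55.0 and 51.7 in blastocysts and fell by 6.07 (SE 0.33, adjusted p = 1.20e-05). DKK3, of the Dickkopf family of WNT regulators, read 6447, 3627 and 5175 against 91.8, 139 and 32.5 and fell by 5.73 (SE 0.51), with a further probe set at -1.46 that did not pass. FGF2 fell by 3.27 (SE 0.64), and a further probe set by 2.84. CCN1, a known target of the Hippo effector YAP, read 92.1, 27.2 and 5.38 against 1322, 1342 and 2706 and rose by 5.20 (SE 0.75). VEGFA, the endothelial growth factor, rose by 3.52 (SE 0.75), with a further probe set that rose by 2.90. Receptors such as IGF2R, TGFBR1, FGFR2 and BMPR2 had changes of 0.17, -0.35, -0.34 and -0.27 and did not pass.

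The list of interferon tau, trophoblast products and interferon-response genes held 19 measured genes, of which 3 rose (15.8%) and 2 fell (10.5%). These shares lie near those of all genes, 17.8% and 8.95%. IFNT2, interferon tau, the signal by which ruminant trophoblast maintains pregnancy, read 31.0, 24.3 and 13.4 in oocytes and 564, 523 and 1543 in blastocysts, a rise of 4.36 (SE 0.52, adjusted p = 3.72e-04). Interferon tau genes are near-identical copies, so which of them the probe set reads is uncertain. PAG2, a pregnancy-associated glycoprotein of trophoblast, read 4.47, 1.95 and 1.31 against 186, 527 and 30.1, a rise of 3.21 (SE 0.67), and TKDP1, a trophoblast Kunitz-type protein, rose by 1.28 (adjusted p = 0.0488), with a further probe set at 2.55. Without blastocyst 1, 2 or 3 or oocyte 1 or 2, the adjusted p of TKDP1 lay between 0.0562 and 0.157, and with quantile normalization it was 0.232. ISG15 and MX1 are induced by interferon in responding cells. ISG15 read 156, 219 and 1517 against 19.4, 17.0 and 13.8 and fell by 3.60 (SE 0.67). MX1 read 276, 214 and 327 against 42.6, 27.6 and 48.3 and fell by 2.38 (SE 0.27). The single 16-cell array read 2182 for ISG15 and 1399 for MX1, above both stages compared. The interferon receptor genes IFNAR1 and IFNAR2 were low in both stages, at mean signals of 58.1 and 75.3 in oocytes and 43.2 and 48.9 in blastocysts.

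Markers of cells other than the embryo were set beside these results. Cumulus and granulosa cell markers held 31 measured genes, 7 of them higher (22.6%) and 3 lower (9.68%) in blastocysts. All genes had 17.8% and 8.95%. The markers' summed signal was 9555 to 12694 on the oocyte arrays and 22235 to 28992 on the blastocyst arrays, where HAS2 alone read 8039, 6215 and 8720. The median signal of the list overlapped between the stages, at 34.7 to 54.6 in oocytes and 42.1 to 55.5 in blastocysts. The rising genes were CTSL, HSD3B1, PTGS2, TIMP1, HAS2, FSHR and CYP11A1. Of these CTSL, PTGS2 and CYP11A1 also stand in the trophectoderm or hypoblast lists, HSD3B1 is also made by trophoblast, and FSHR stayed at mean signals of 5.33 and 25.7. The adjusted p of CYP11A1 was 0.114 with quantile normalization and 0.0559 to 0.137 without any 1 array other than oocyte 3. That of FSHR was 0.0594 with the replicate block, 0.119 with median centring, and 0.0882 and 0.0706 without oocyte 1 and oocyte 3. Among members without a call, CYP19A1, AMH and FOXL2 had mean oocyte signals of 17.0, 28.3 and 50.2 and mean blastocyst signals of 27.1, 14.1 and 36.0. The 3 falling members had higher oocyte means. STAR, which brings cholesterol into mitochondria, read 2537, 2958 and 2640.2 in oocytes and 139.8, 202 and 83.4 in blastocysts and fell by 4.18 (SE 0.78). VCAN, a proteoglycan of the expanded cumulus, read 965, 672 and 399 against 64.5, 72.5 and 85.3 and fell by 2.87 (SE 0.47), with a further probe set that fell by 5.12. TNFAIP6, which links hyaluronan, read 562, 70.2 and 1072 against 21.6, 36.7 and 9.89 and fell by 3.35 (adjusted p = 0.0270). Its adjusted p rose to between 0.0531 and 0.089 without blastocyst 1, 2 or 3 or oocyte 1 or 3. HAS2, which makes hyaluronan, rose by 2.29 and 3.58 on 2 probe sets and fell by 6.13 on another, all past the test, so its direction is uncertain. The part of cumulus cells in the oocyte signals was not tested.

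The remaining marker lists were mostly low. Of 12 sperm markers, ODF2, also a centriole protein, rose by 3.53 and LDHC, the lactate dehydrogenase of germ cells, fell by 1.85 (adjusted p = 0.0272), while PRM1, PRM2 and ACR had mean blastocyst signals of 8.59, 1.65 and 5.31. The summed sperm signal was 307 to 412 in oocytes and 936 to 1235 in blastocysts, where ODF2 alone read 1029, 888 and 606. The median signal of the sperm list overlapped between the stages, at 15.17 to 22.35 in oocytes and 14.36 to 22.11 in blastocysts. Leaving out blastocyst 1, 2 or 3 or oocyte 1 or 2 raised the adjusted p of LDHC to between 0.0522 and 0.0954. Of 16 blood and immune markers, CXCR4, a chemokine receptor, fell by 2.58 (SE 0.33), from 76.4, 193 and 113 to 5.15, 9.40 and 5.51, and PTPRC, the leukocyte marker CD45, was at 22.4 and 15.9. Their sum was 671 to 1468 in oocytes and 560 to 943 in blastocysts. None of 17 stromal markers passed with limma over all probe sets, with sums of 822 to 1566 and 918 to 1188, and FBN1, fibrillin, came closest at -1.72 (adjusted p = 0.0732). FBN1 passed with quantile normalization (adjusted p = 0.0273) and without oocyte 3 (adjusted p = 0.00317).

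Few genes passed the test between the blastocyst and the morula, the compact stage before the cavity forms. In the same fit, 15 genes were higher (0.164%) and 7 lower (0.0765%) in blastocysts than in morulae at the test's threshold. The comparisons share the blastocyst arrays, so their values are given side by side. Of the 1634 genes that rose from the oocyte, 13 were also higher than in morulae and 1621 gave no call. Of the 819 that fell, 3 were also lower, 1 was higher and 815 gave no call. A missing call does not show that a gene had reached its blastocyst level, since the morula arrays also differed among themselves.

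The 8 largest rises past both tests were those of HSD3B1, UBD, PLEKHO2, IFNT2, HEBP2, NGEF, SLC28A3 and PRSS8. They were taken over all probe sets with 1 gene symbol, LOC symbols left out. Further conditions were a higher stage mean above the median of all and no overlap between morula and blastocyst arrays. HSD3B1, which makes progesterone from pregnenolone, read 60.8, 26.8 and 37.0 in oocytes, 44.0, 23.3 and 39.0 in morulae and 1458, 3867 and 2148 in blastocysts. It rose by 5.37 (SE 0.42) over oocytes and by 5.51 (SE 0.42, adjusted p = 0.00352) over morulae, while its single 16-cell array read 780.0. UBD, a ubiquitin-like modifier, read 12.6, 13.9 and 12.4, 44.4, 40.2 and 4.09 and 646, 2732 and 860.1 in the same order, 4.84 (SE 0.56) above morulae. IFNT2 read 87.6, 50.8 and 15.5 in morulae, and its blastocyst level was 3.71 higher (SE 0.52, adjusted p = 0.0327). That no morula array of these 3 genes reached the lowest blastocyst array was a condition of the choice. PRSS8, the membrane protease prostasin that activates epithelial sodium channels, was 3.43 above morulae, SLC28A3, a nucleoside transporter, 3.70 on 1 probe set, and NGEF, a guanine nucleotide exchange factor, 3.74. HEBP2, a heme-binding protein, and PLEKHO2 were 3.72 and 3.44 above morulae, and PLEKHO2 had its morula arrays at 214, 224 and 188. SLC28A3 is not among the 13 genes, since its 2 other probe sets, 1 of them that of highest mean, did not pass against oocytes, both at 0.63 (adjusted p = 0.127 and 0.501).

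Several epithelial genes had large blastocyst values without a call against morulae. KRT8 read 142, 46.4 and 22.8 in morulae and KRT19 731, 375 and 20.2, and their blastocyst levels were 2.89 (adjusted p = 0.0717) and 4.27 (adjusted p = 0.457) higher. PTGS2, the prostaglandin synthase, read 259, 74.4 and 137 in morulae and 1855, 6409.7 and 2598 in blastocysts, a difference of 4.34 (adjusted p = 0.0846). DSC2 read 235, 34.5 and 4.29 and 1444, 4151 and 1182, a difference of 4.93 (adjusted p = 0.0774). In each of these genes the blastocyst arrays were above the morula arrays.

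The 3 falls past both tests were SRPX, QPCT and TKTL1. SRPX, a sushi-repeat protein, read 10927, 12530.5 and 8689.6 in oocytes, 334, 645 and 1486 in morulae and 59.6, 60.3 and 35.2 in blastocysts. TKTL1, a relative of transketolase, read 1552, 1767 and 2809, 1234, 1623 and 2861 and 189, 137 and 31.1, so its morula arrays lay close to the oocytes and its log2 change from morulae to blastocysts was -3.99 (SE 0.58, adjusted p = 0.0382). QPCT, which cyclizes terminal glutamine, read 477, 407 and 799, 230.2, 154 and 288 and 8.00, 20.0 and 3.74. The gene that fell from the oocyte yet was higher than in morulae was ELOVL4, which makes very long fatty acids, at 10362, 8464 and 9209 in oocytes, 145, 98.4 and 76.2 in morulae and 904, 593 and 436 in blastocysts.

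**Figure D4:**
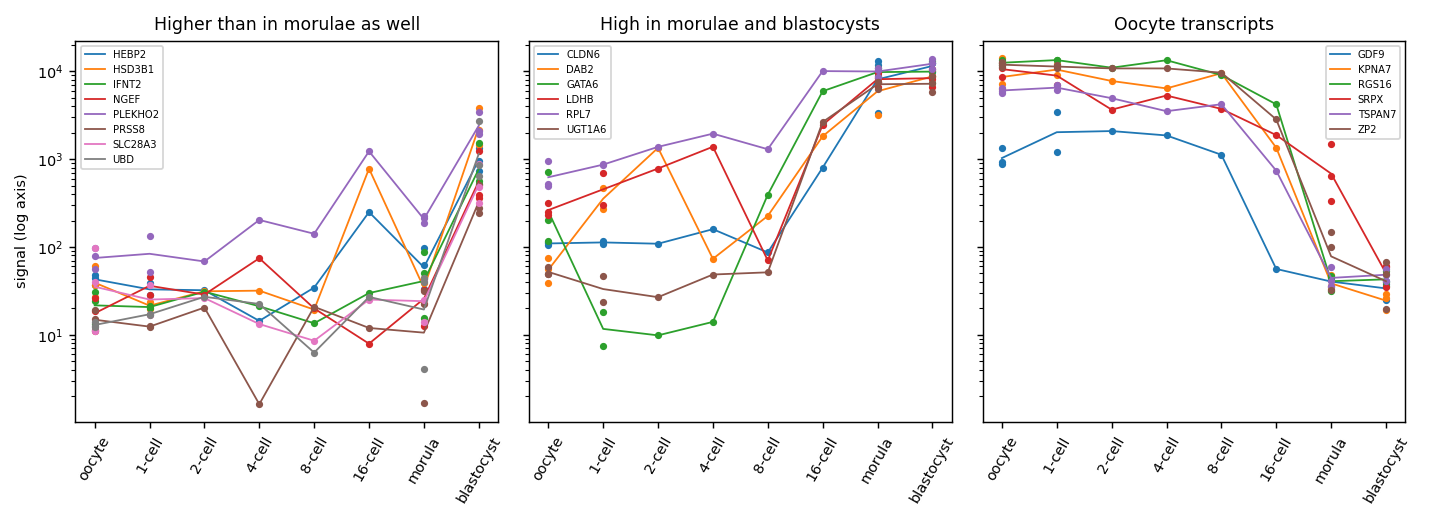
Signal of each array by stage on a log axis, with lines through the geometric mean of each stage, for the 8 probe sets highest over morulae that were higher than in both oocytes and morulae (left), for 6 genes high in morulae and blastocysts (middle) and for 6 oocyte transcripts (right). The genes of the middle and right panels were chosen after their values were seen. UBD, IFNT2 and PRSS8 stay low up to the morula, whereas GATA6 and UGT1A6 are high from the 16-cell array on.

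Each other array was placed between the oocyte mean, set to 0, and the blastocyst mean, set to 1, over the probe sets called with at least a 4-fold change. These were chosen on the oocyte and blastocyst arrays, so the positions are a description, and stages with 1 array have no replicate check. For 2125 rising probe sets the median position was 0.0659 and 0.00376 on the 1-cell arrays and -0.0249, 0.00677 and -0.000224 on the 2-cell, 4-cell and 8-cell arrays. It was 0.764 on the 16-cell array and 1.02, 1.00 and 0.864 on the morula arrays. For 1180 falling probe sets it was 0.0831, 0.0649 and 0.159 on the 2-cell, 4-cell and 8-cell arrays, 0.487 on the 16-cell array and 0.926, 0.925 and 0.992 on the morula arrays. Between the 8-cell and the 16-cell array the positions thus stepped by more than over all earlier arrays, and rising probe sets lay further along than falling ones on the 16-cell array. Left out of its own stage mean, each oocyte array lay between -0.0944 and 0.0679 and each blastocyst array between 0.911 and 1.09.

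**Figure D5:**
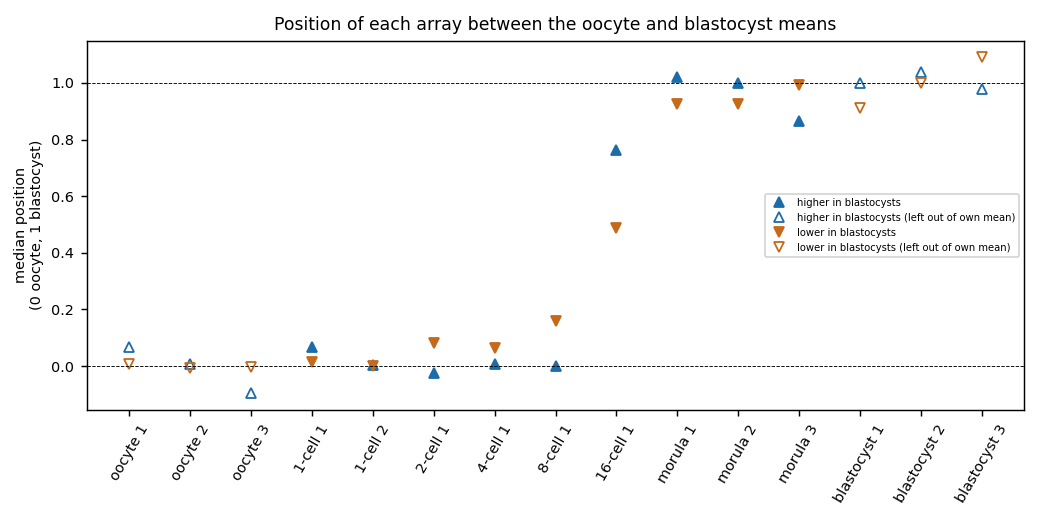
Median position of each array between the oocyte mean (0) and the blastocyst mean (1) over probe sets called with at least a 4-fold change, upward triangles for 2125 rising and downward triangles for 1180 falling ones; open symbols are oocyte and blastocyst arrays left out of their own mean. The 16-cell array stands at 0.764 for rising and 0.487 for falling probe sets.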

How the data were processed

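Per the labels' protocols, total RNA went through 3 rounds of amplification and was biotin-labelled for hybridization. The table that the authors deposited holds intensity values on a linear scale, from 0.39 to 20787.9, and 2.56% of them exactly 1.00. The summarisation of probes, the scaling of arrays and any floor were not given in the sources used here, so low signals have no stated background.

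From these values, 112 control probe sets were left out and log2(value + 16) of 24016 probe sets was tested with limma 3.58.1 in R 4.3.3, with 1 mean per stage over all 15 arrays (7 residual degrees of freedom), a variance that followed the mean signal and p-values adjusted by Benjamini and Hochberg's method across all of them (threshold 0.05). Every log2 change is on that scale, which understates the change of low signals. Platform symbols were replaced, by gene identifier, with those of RefSeq's ARS-UCD2.0 table: 13292 probe sets had 1 symbol, 86 several and 10638 none, and 9155 genes were named. The probe set with the highest mean of log2 values over all arrays stood for a gene. No sequences or coordinates were used here.

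The 25 lists (1107 genes, 811 measured), the fixed markers and the comparison itself were chosen with earlier results of these data known. Named genes were the 15 largest called rises and falls without overlap between arrays and with a higher stage mean above the median of all, up to 5 called members per list and direction or else the 2 of highest mean, fixed markers, pairs of related forms, the 8 largest rises and falls past both the oocyte and the morula test, and members counted at 5 or fewer. The rises and falls past both tests were also taken above that median and without overlap, there between morula and blastocyst arrays. Other list members are given by their change or mean and were picked, after their values were seen, as examples. Same-numbered oocyte and blastocyst arrays deviated together (correlations of 0.278, 0.276 and 0.285), so the numbers were read as pairs, and a fit of oocyte, morula and blastocyst arrays with the number as a block was an alternative. The others were quantile normalization, median centring, pseudocounts of 1 and 64, a filter on low probe sets, other variance models, fewer arrays, the spike-in class, and 1 probe set mean per gene. On simulated data with 200 changed probe sets, 28% of changes of 2 and 80% of changes of 4 on the log2 scale were recovered, with 5 false calls among 24016. The simulated noise was independent between arrays, unlike the shared deviations above, and far fewer probe sets changed than were called here. These shares therefore need not hold for the data. Plots used matplotlib 3.10.9 (Python 3.11.15).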

Additional observations from a re-analysis of the deposited data

Results flagged for a closer look

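Spike-in transcripts added to RNA as a labelling control lie outside the comparison of the stages and gave signal on part of the arrays. The lysine spike-in read 1997 on oocyte 2, 6200.2 on oocyte 3 and 4486 on blastocyst 3, against 69.0 on oocyte 1, 42.2 on blastocyst 1 and 49.3 on blastocyst 2. The class of array does not follow the stage, but oocytes have 2 arrays with the signal and blastocysts 1. With the class as a block, 2937 probe sets were higher and 2000.0 lower in blastocysts.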

How the results depend on the processing

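Leaving out 1 array at a time gave 2111 to 2881 higher and 1245 to 2066 lower probe sets, and 8 to 13 falling maternal genes. Fits within each spike-in class took the arrays of all stages in that class. The class with the signal held 1 blastocyst array and left 1 residual degree of freedom. The class without it held 1 oocyte array and left 2. The median log2 change of all probe sets was 0.02 with the signal and 0 without it, and no calls are read from either fit. Without the arrays numbered 3, 4152 probe sets were higher and 2654 lower, 61.0% of calls higher, and the cause was not tested. There 3 ion and water transport, 4 lipid and 5 heat shock and redox genes fell. With only the oocyte and blastocyst arrays, 2238 probe sets were higher and 1280 lower. In that fit 9 proteasome and ubiquitin genes rose, and 17 of 188 named probe sets lost their call, PAG2 among them (adjusted p = 0.0507). SOX2, not called in the fit reported, was 1.40 higher in the fit of the arrays without spike-in signal. That fit holds 1 oocyte array, reading 17.3, so no call is read from it. The replicate block gave 2986 higher and 1849 lower probe sets, and the calls it changed at the probe sets that stand for the genes named are given beside them. The number of arrays, 3 a stage, limited what could be called.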
